A study of Mus musculus with 72 samples.

Results

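Dxz4 and Firre are macrosatellite loci of the mouse X chromosome, that is, loci built from large tandem repeats. They were followed here by their transcripts in 72 libraries of chromatin-associated RNA (ChrRNA-seq). The members are 2 genes of the 22556 in the count files, 4933407K13Rik, which is the noncoding transcript annotated at Dxz4, and Firre, a long noncoding RNA listed in older annotations as 6720401G13Rik. They were chosen by name, for these loci, and not by any measured value, although earlier results of these data were known. Both are also among the 246 X-linked genes of the allelic table for iXist-ChrX_Dom and the 399 of the table for iXist-ChrX_Cast, with 235 genes shared by both tables.

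The cells were female F1 mouse ES cells (mESCs) of a Dom/129S x Cast cross, in which the endogenous Xist promoter had been replaced on 1 allele by a doxycycline-driven TetOn promoter. In iXist-ChrX_Dom the engineered allele was the 129S one, so the inactive X (Xi) was the Dom chromosome, and in iXist-ChrX_Cast it was the Cast one. Every wild-type (WT) and SmcHD1 KO sample carried the engineered promoter. The KO samples came from 1 clone of iXist-ChrX_Dom (A3) and 2 clones of iXist-ChrX_Cast (D5 and G6), so that in iXist-ChrX_Dom the KO and its clone cannot be told apart. Cells were differentiated towards neural precursor cells (NPCs) under continuous doxycycline. Samples are labelled mESC when uninduced, mESC to NPC at days 2, 3, 5 and 7 (2 or 3 replicates per group) and NPC at days 15, 21, 35 and, for iXist-ChrX_Dom, 52 (the late days, with 1 library per clone and day). Uninduced ES samples were analysed for the KO clones, with 2 replicates of A3, 2 of D5 and 1 of G6, and uninduced WT samples were not analysed here. In 7 cases a replicate had 2 libraries, labelled R1 and R2 and called its runs here, which were combined, giving 65 replicates. The labels do not state what R1 and R2 stand for. The labels do not say that replicates were separate cultures or differentiations. The paper describes its values of days 2 to 7 as means over replicate time course experiments and does not name R1 and R2. For iXist-ChrX_Cast it counts 3 such experiments on days 3, 5 and 7. D5 and G6 reach 3 on those days only when R1 and R2 are counted apart, as separate experiments would be. Late KO values are described there as single samples, although G6 on day 35 also has R1 and R2. The tests measure the spread between these samples.

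Libraries held 9344054 to 31216487 gene-assigned fragments. Each total is given as RPM, a gene's fragments scaled to a fixed library total. The Xi share, the allelic ratio Xi/(Xi+Xa), is the fraction of fragments assigned to a parental genome that came from the inactive X, where Xa is the active X. At Dxz4 a replicate had 100 to 522 such allelic fragments (median 227), and at Firre 830 to 25645 (median 4735), so the Firre shares are the more precise. The labelled cell types were checked by marker genes. The summed level of 6 pluripotency genes (Pou5f1, Nanog, Zfp42, Klf2, Esrrb and Dppa5a) was 821 to 1213 RPM in ES samples and at most 145 RPM in any library of day 15 or later. The summed level of 6 neural precursor genes (Nes, Sox1, Pax6, Vim, Fabp7 and Olig2) was 26.8 to 61.9 RPM in ES samples and 129 to 914 RPM from day 15 on, although Sox1 among them was listed at 0 in every library, ES samples included. The 6 fibroblast markers (Col1a1, Col1a2, Col3a1, Dcn, Lum and Postn) summed to 242 to 16140 RPM from day 15 on against 4.49 to 29.9 RPM in ES samples. In these bulk samples fewer cells of a type and less RNA per cell cannot be told apart.

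On the inactive X, Dxz4 is known to bind CTCF and to lie at the boundary between the large domains into which that chromosome folds, and Firre is known to make long-range contacts with it. Firre RNA is retained in the nucleus and binds the nuclear matrix protein HNRNPU. SmcHD1 is a noncanonical structural maintenance of chromosomes protein that is recruited to the inactive X and is needed for full and lasting silencing of part of its genes.

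The repeats are visible in the transcripts themselves. In mm10, the count files placed 4933407K13Rik at chrX:75725457-75764699 and Firre at chrX:50555743-50635258, both on the minus strand, with 39.243 and 79.516 kb of counted sequence that includes introns. In the GENCODE annotation of GRCm38, the isoform 4933407K13Rik-203 has 11 exons, of which 7 (exons 2 to 8) are 163 bases long, lie 3841 to 5723 bases apart and are 97.5% to 100% identical. Firre-206 has 20 exons, of which 4 (exons 4, 9, 10 and 11) are 155 bases long and 96.1% to 98.7% identical. Of the bases of Firre-206, 42.8% lay in words of 24 bases that occurred more than once in the transcript, and of those of 4933407K13Rik-203, 25.6%. The median over 160 X-linked noncoding transcripts of at least 1000 bases was 0, and 0.625% of them were above Firre-206 and 3.12% above 4933407K13Rik-203. The 160 include isoforms of both loci, so Firre-206 is itself among those above 4933407K13Rik-203. These are the longest isoforms, and some shorter ones, such as Firre-202 and 4933407K13Rik-205, had 0%. Neighbouring exon copies are shown because the repeated unit is what defines the loci and because reads that match several copies equally well were not counted. Exons 2 and 3 of 4933407K13Rik-203 (chrX:75760232-75760394 and chrX:75755366-75755528, minus strand) differ at 3 positions, and exons 9 and 10 of Firre-206 (chrX:50600744-50600898 and chrX:50598134-50598288, minus strand) at 5. The capitals mark the bases that differ within each pair.
4933407K13Rik exon 2: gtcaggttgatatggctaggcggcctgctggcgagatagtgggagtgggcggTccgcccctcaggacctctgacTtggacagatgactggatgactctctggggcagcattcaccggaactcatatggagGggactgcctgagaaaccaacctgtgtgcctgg
4933407K13Rik exon 3: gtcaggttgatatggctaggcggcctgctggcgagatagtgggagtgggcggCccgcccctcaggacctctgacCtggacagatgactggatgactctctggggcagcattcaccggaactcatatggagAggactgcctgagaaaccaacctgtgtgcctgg
Firre exon 9: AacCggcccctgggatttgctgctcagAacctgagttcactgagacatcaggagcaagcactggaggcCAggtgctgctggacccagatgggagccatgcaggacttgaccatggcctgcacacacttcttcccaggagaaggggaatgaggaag
Firre exon 10: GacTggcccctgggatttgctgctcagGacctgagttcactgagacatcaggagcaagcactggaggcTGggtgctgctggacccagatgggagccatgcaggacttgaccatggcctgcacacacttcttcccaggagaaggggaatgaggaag

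Before induction, both loci were transcribed from both X chromosomes, and Firre was uneven between alleles. At Dxz4 the Xi share in ES cells was 0.417 and 0.440 in A3, 0.425 and 0.486 in D5 and 0.460 in G6. In A3 the allele that would be silenced is the Dom one and in D5 and G6 the Cast one, and all 5 Dxz4 values lay below 0.5. For Firre the Xi share was 0.657 and 0.637 in A3, 0.288 and 0.323 in D5 and 0.287 in G6. More Firre fragments were thus assigned to the Dom allele than to the Cast allele in all 5 ES samples. On days 5 and 7 a mean of 10890 of 18085 Firre fragments were allelic in iXist-ChrX_Cast, where the Dom allele is active. In iXist-ChrX_Dom, where the Cast allele is active, it was 4327 of 9102. The alleles may thus not be assigned equally often, and no share or allelic level here is corrected for this. Of the other genes of each table, 4.08% had a higher mean share than Firre in uninduced A3 cells, and 95.7% a higher mean than Firre in uninduced D5 and G6 cells. Per length of counted sequence, Firre RNA was at 8.43 ± 1.42 RPM per kb in ES cells and Dxz4 RNA at 0.523 ± 0.083 RPM per kb (SD, n = 5).

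Over the first week of Xist induction the Xi share of Dxz4 came down in every clone and both lines. In WT iXist-ChrX_Dom, Dxz4 was at 0.256 and 0.182 on day 2, 0.160 and 0.138 on day 3, 0.0917 and 0.0815 on day 5, and 0.0660 and 0.0577 on day 7. In WT iXist-ChrX_Cast it was at 0.127 and 0.201 on day 2, 0.0980, 0.0872 and 0.112 on day 3, 0.0694, 0.0711 and 0.0877 on day 5, and 0.0374, 0.0119 and 0.0558 on day 7. In both lines each day 7 value was below every value of days 2 and 3. The KO clones ran through similar values. In A3 Dxz4 was at 0.154 and 0.176 on day 2, 0.218 and 0.15 on day 3, 0.0769 and 0.0862 on day 5, and 0.0616 and 0.0562 on day 7. In D5 it was at 0.122 and 0.184 on day 2, 0.0876 and 0.0861 on day 3, 0.0638 and 0.0645 on day 5, and 0.0727 and 0.0542 on day 7, and in G6 at 0.133 and 0.174, 0.0873 and 0.0599, 0.0624 and 0.0357, and 0.0553 and 0.0529 on the same days.

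At Firre the share also came down, and the level it reached differed between the lines. In WT iXist-ChrX_Dom it was at 0.161 and 0.159 on day 2, 0.119 and 0.116 on day 3, 0.0909 and 0.104 on day 5, and 0.0895 and 0.101 on day 7. In WT iXist-ChrX_Cast it was at 0.0313 and 0.0400 on day 2, 0.0169, 0.0263 and 0.0196 on day 3, 0.00892, 0.0106 and 0.0124 on day 5, and 0.0102, 0.01 and 0.0126 on day 7. The lowest value of WT iXist-ChrX_Dom over these days lay above the highest of WT iXist-ChrX_Cast. A3 was at 0.166 and 0.140 on day 2, 0.113 and 0.0942 on day 3, 0.0970 and 0.0829 on day 5, and 0.107 and 0.0927 on day 7, while D5 and G6 together ran from 0.0191 to 0.0382 on days 2 and 3 and from 0.00877 to 0.0180 on days 5 and 7. The plot of Xi share by day shows these courses beside each other.

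**Figure D1:**
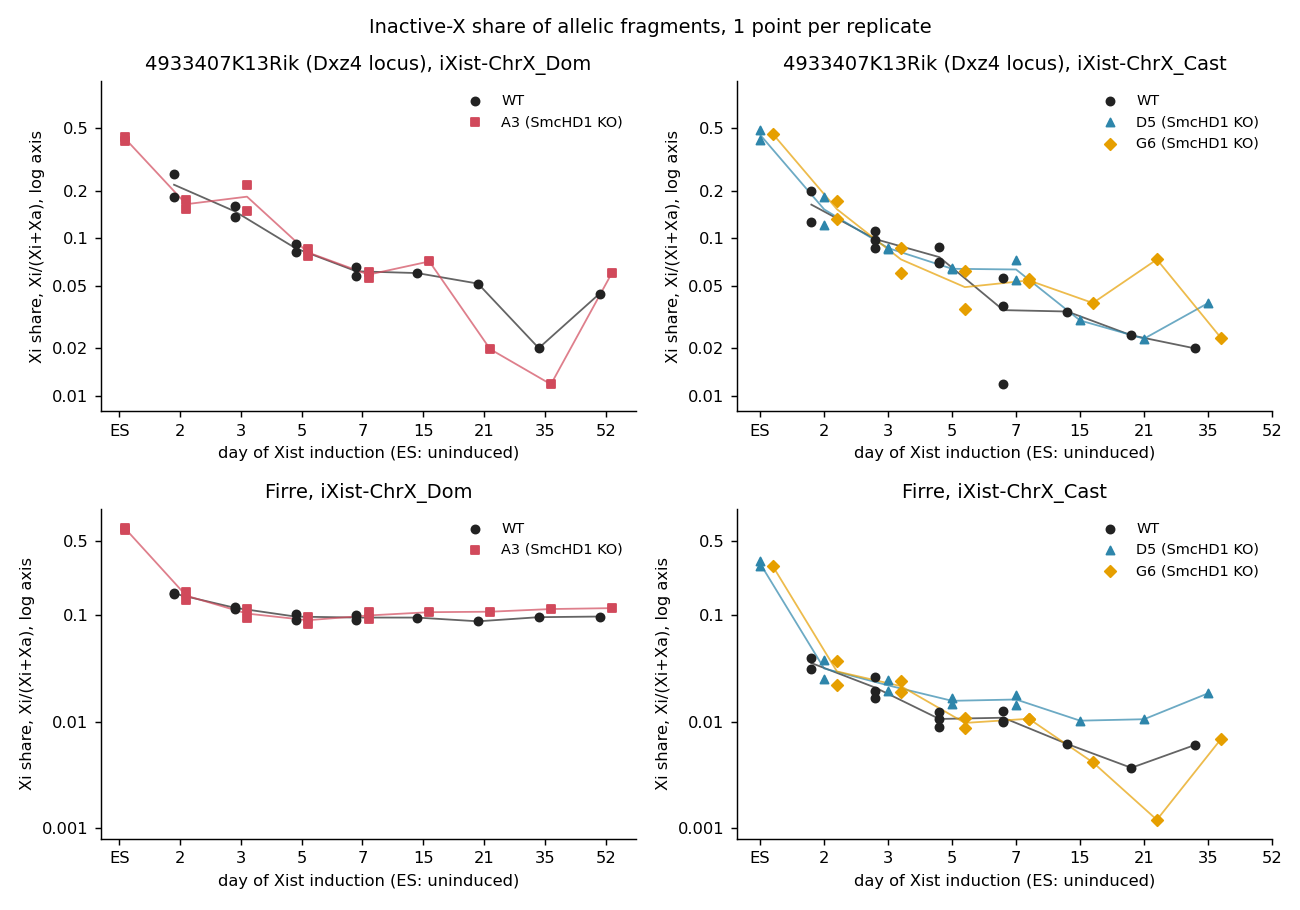
Xi share (fraction of allelic fragments from the inactive X, log axis) of 4933407K13Rik at Dxz4 and of Firre by day of Xist induction, with 1 point per replicate for WT and the SmcHD1 KO clones A3, D5 and G6 and lines through the means of the days. Firre settles near 0.1 in iXist-ChrX_Dom and near 0.01 in iXist-ChrX_Cast, while Dxz4 follows a similar course in both lines.

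These changes were tested over all genes of each table. From ES cells to days 2 and 3, the Xi share of Firre fell by 0.519 in A3 (SE 0.0295, limma, adjusted p = 3.8e-10) and by 0.272 in D5 and G6 (adjusted p = 1.43e-21). That of Dxz4 fell by 0.254 in A3 (adjusted p = 7.57e-07) and by 0.340 in D5 and G6 (adjusted p = 2.29e-14). Both members were thus called in both clone groups, where 96.2% of all X-linked genes tested were called in A3 and 99.5% in D5 and G6. In A3, 2.11% of genes had a change below that of Firre. Since Firre began at a higher share in A3 than in D5 and G6, the changes were also compared as log2 odds, which fell by 3.67 in A3 and by 4.01 in D5 and G6, and the difference between these changes did not pass the test (-0.34, SE 0.738, adjusted p = 0.987).

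From days 2 and 3 to days 5 and 7, Dxz4 fell in every genotype and Firre fell in iXist-ChrX_Cast. The Xi share of Dxz4 fell by 0.110 in WT iXist-ChrX_Dom (adjusted p = 0.00212), fell by 0.104 in A3 (adjusted p = 0.00248), fell by 0.0694 in WT iXist-ChrX_Cast (adjusted p = 0.00646) and fell by 0.0590 in D5 and G6 (adjusted p = 0.00116). For Firre the difference was -0.0160 in WT iXist-ChrX_Cast (adjusted p = 0.0238) and -0.0132 in D5 and G6 (adjusted p = 0.0298), and it did not pass the test in WT iXist-ChrX_Dom (-0.0425, adjusted p = 0.0995) or in A3 (-0.0335, adjusted p = 0.210). The shares of all genes called were 86.9%, 71.4%, 88.2% and 82.4% in WT iXist-ChrX_Dom, A3, WT iXist-ChrX_Cast and the pair of D5 and G6. The Firre result in iXist-ChrX_Dom changed with the model: a quasi-binomial test of the allelic counts called it in WT (-0.58 in log2 odds, adjusted p = 0.00136) and in A3 (-0.48, adjusted p = 0.0236). The limma call in WT iXist-ChrX_Dom was gained without replicate 2 of day 3 (values without each replicate from -0.0502 to -0.0350, adjusted p from 0.0271 to 0.210), and that in D5 and G6 was lost without replicate 2 of day 2 of either clone (from -0.0146 to -0.0110, adjusted p from 0.00696 to 0.0656). Whether the change of Firre differed between lines over these days was not tested.

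From day 15 on, the Xi share of Dxz4 was low in every group but was read from few fragments. In WT iXist-ChrX_Dom it was 0.0602, 0.0516, 0.0201 and 0.0446 on days 15, 21, 35 and 52, and in A3 0.0714, 0.0198, 0.0118 and 0.0600. In iXist-ChrX_Cast on days 15, 21 and 35 it was 0.0343, 0.0242 and 0.02 in WT, 0.0301, 0.0231 and 0.0388 in D5, and 0.0389, 0.0735 and 0.0234 in G6. WT and KO overlapped in both lines. Between 2 and 11 Xi fragments lay behind each value, and the 95% Wilson interval, which covers counting error only, was 0.0404 to 0.130 for the highest value, that of G6 on day 21.

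Firre at these days kept a share near 0.1 in iXist-ChrX_Dom and one near 0.01 or lower in iXist-ChrX_Cast. WT iXist-ChrX_Dom was at 0.0952, 0.0878, 0.0960 and 0.0974 on days 15, 21, 35 and 52, with Wilson intervals between 0.0787 and 0.114, and A3 at 0.107, 0.108, 0.115 and 0.117, with intervals between 0.0888 and 0.139. Each A3 value was above every WT value of the line, while the intervals of WT and A3 overlapped on every day. WT iXist-ChrX_Cast was at 0.00620, 0.00371 and 0.00609 on days 15, 21 and 35, D5 at 0.0103, 0.0106 and 0.0185, and G6 at 0.00417, 0.00120 and 0.00688. The lowest of these rested on 1 Xi fragment of 830 (interval 0.000213 to 0.00679). D5 lay above WT on all 3 days, whereas G6 lay below WT on days 15 and 21.

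Late against days 5 and 7, neither member passed the limma test of the Xi share in any genotype. The differences of Firre were -0.0021 in WT iXist-ChrX_Dom, 0.0168 in A3, -0.0055 in WT iXist-ChrX_Cast and -0.0045 in D5 and G6, and those of Dxz4 lay between -0.0301 and -0.0197. Few genes of any kind passed there, 0% of those tested in WT iXist-ChrX_Dom and in A3 (14 and 6 genes at an unadjusted p below 0.05), 0.252% in WT iXist-ChrX_Cast and 4.59% in D5 and G6. These counts and 1 call depended on the model. A quasi-binomial test of the allelic counts called 51, 1, 3 and 140 genes in the same order, with neither member among them, and the log2 odds scale called 108, 11, 217 and 215 genes, with Firre among them in D5 and G6 (-0.88, adjusted p = 0.0427).

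The place of the loci among all genes of the tables changed during the course. In WT iXist-ChrX_Cast on days 2 and 3, the mean Firre share of 0.0268 was below the median of all genes, 0.109, and 93.5% of genes were higher. From day 15 on, its mean of 0.00533 was close to the median of 0.00413, and 43.9% of genes were higher. In WT iXist-ChrX_Dom the mean Firre share was 0.139 on days 2 and 3 against a median of 0.171, with 59.6% of genes higher, and 0.0941 from day 15 on against a median of 0.00685, with 9.02% of genes higher. For Dxz4 the count also shrank, from 45.3% of genes higher on days 2 and 3 to 24.2% higher from day 15 on in WT iXist-ChrX_Dom, and from 44.2% to 12.6% in WT iXist-ChrX_Cast. In the KO, where the median of all genes from day 15 on was 0.0382 in A3 and 0.0147 in D5 and G6, more genes stood above the members: 23.2% were above Firre and 49.4% above Dxz4 in A3, and 61.1% and 31.2% in D5 and G6.

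**Figure D2:**
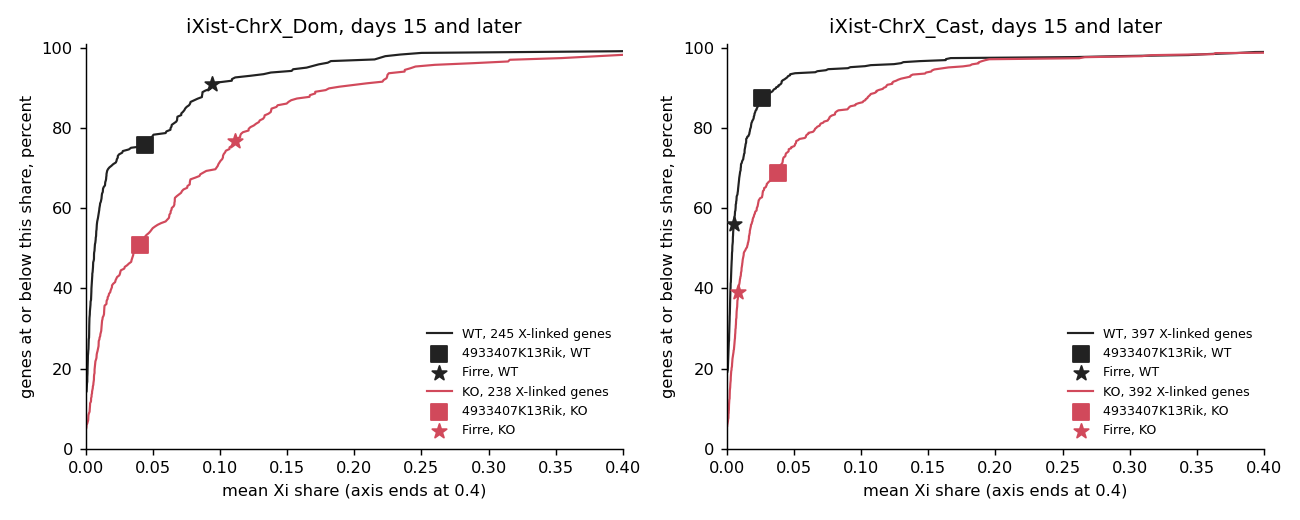
Percent of X-linked genes of each line's allelic table (vertical axis) whose mean Xi share at days 15 and later is at or below the value on the horizontal axis, in WT and SmcHD1 KO, with Firre and 4933407K13Rik at Dxz4 marked. The horizontal axis ends at 0.4. In WT iXist-ChrX_Dom 9.02% of genes lie above Firre, against 43.9% in WT iXist-ChrX_Cast.

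The difference between the reciprocal lines was tested in WT samples. Over days 2 to 7 the Xi share of Firre was lower in iXist-ChrX_Cast than in iXist-ChrX_Dom (difference -0.0968, SE 0.00662, 95% interval -0.111 to -0.0829, limma, adjusted p = 7.95e-10), rank 6 by p among 235 genes, where the median gene differed by -0.0127. Dxz4 differed by -0.0347 (SE 0.0124, adjusted p = 0.0343), a call that was lost on the log2 odds scale (-0.61, adjusted p = 0.0578). It was also lost in 5 of the 19 fits that left out 1 replicate (replicate 1 of day 2 in either line, replicate 1 of day 3 in iXist-ChrX_Dom, replicate 2 of days 3 and 7 in iXist-ChrX_Cast), with values from -0.0389 to -0.0273. In all, 41.3% of genes were called. On days 15 to 35 the difference of Firre was of similar size, -0.0877 (SE 0.0138), but did not pass (adjusted p = 0.273), and Dxz4 differed by -0.0178. With 3 libraries per line on those days limma called 0% of genes (22 at an unadjusted p below 0.05), and the quasi-binomial test, with 3 genes called, and the log2 odds scale, with 8, called Firre (-4.18 in log2 odds, adjusted p = 0.0462, and -4.22, adjusted p = 0.0482). The lines are reciprocal in the chromosome that carries the engineered Xist but were also separately derived, so the allele and the line cannot be told apart. In uninduced KO cells the mean Firre share was already 0.647 in A3 and 0.300 in D5 and G6, and the WT differences are not corrected for the share before induction.

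The same allele can be compared as Xa in one line and as Xi in the other, which sets aside the unequal output of the alleles but compares samples of different lines. In uninduced KO cells the Cast allele of Firre gave 97.4 ± 8.6 RPM of allelic fragments in D5 and G6 (SD, n = 3) and 149 ± 16 RPM in A3 (n = 2), and the Dom allele 274 ± 12 RPM in A3 and 228 ± 12 RPM in D5 and G6. In WT the Cast allele as Xi was at 7.81 ± 2.15 RPM on days 2 and 3 (n = 5), 3.37 ± 0.39 RPM on days 5 and 7 (n = 6) and 0.626 ± 0.476 RPM from day 15 on (n = 3), and as Xa it was at 131 ± 14, 165 ± 21 and 73.2 ± 36 RPM (n = 4 each). The ratio of the Xa to the Xi level of the Cast allele was thus 16.7, 49.1 and 117 over the 3 periods. The Dom allele of Firre as Xi was at 20.9 ± 2.9, 17.6 ± 2.8 and 7.49 ± 3.37 RPM (n = 4 each), and as Xa at 291 ± 49, 312 ± 46 and 109 ± 66 RPM (n = 5, 6 and 3). Its ratio was 13.9, 17.7 and 14.5. In WT the Cast allele of Firre was thus lower on the inactive X than the Dom allele in level of assigned fragments. In WT iXist-ChrX_Dom both alleles fell together from days 5 and 7 to day 15 on. The Dom allele as Xi went from 17.6 to 7.49 RPM and the Cast allele as Xa from 165 to 73.2 RPM. How many fragments were assigned to the wrong allele was not tested. Relative to the active copy, the ratios of the alleles lay close on days 2 and 3 and far apart from day 15 on. In uninduced KO cells the same ratio between lines was already 1.53 for the Cast allele and 0.832 for the Dom allele. The WT ratios are not corrected for such a difference, since uninduced WT samples were not analysed. These ratios compare means and were not tested.

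At Dxz4 the WT ratio of Xa to Xi was 5.88, 16.1 and 29.0 for the Cast allele over the 3 periods and 5.24, 12.4 and 27 for the Dom allele. In the KO, where the ES ratios were 1.40 and 1.13, they were 5.52, 16.9 and 24.1 for the Cast allele and 6.20, 13.1 and 29.9 for the Dom allele. The KO ratios of Firre were 1.53 in ES cells and then 16.6, 25.8 and 79.7 for the Cast allele, and 0.832 and then 15.0, 26.1 and 11.9 for the Dom allele. The alleles of Dxz4 were thus closer to each other in this ratio than those of Firre in WT in each period and in the KO from day 15 on, but not in the KO on days 2 to 7. In every induced period and genotype, the lowest level of each allele as Xa was above its highest level as Xi at both loci.

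**Figure D3:**
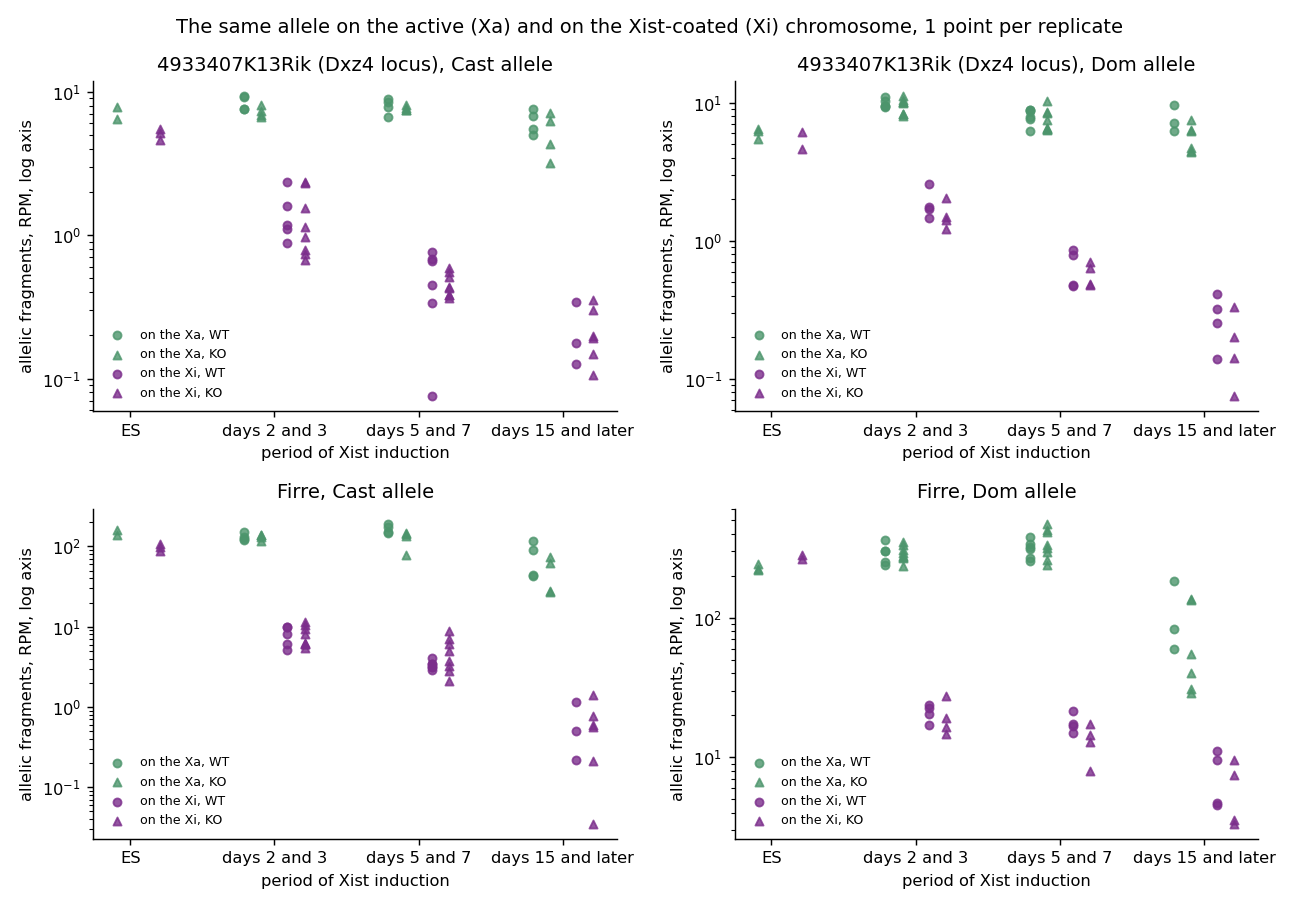
Level of each parental allele of 4933407K13Rik at Dxz4 and of Firre (allelic fragments, RPM, log axis) by period when it lies on the active X and when it lies on the inactive X, in WT (circles) and SmcHD1 KO (triangles), with 1 point per replicate and ES cells shown before either chromosome is inactivated. The mean of the Cast allele of Firre on the inactive X goes from 7.81 to 0.626 RPM in WT, and that of the Dom allele from 20.9 to 7.49 RPM.

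Total Firre RNA was lower from day 15 on than on days 5 and 7 in every genotype, and in A3 it was already lower on days 2 to 7 than in ES cells. In uninduced cells it was 748 and 828 RPM in A3, 556 and 608 RPM in D5 and 611 RPM in G6. In WT iXist-ChrX_Dom it was 301 and 291 RPM on day 2, 360 and 315 on day 3, 398 and 345 on day 5, and 346 and 453 on day 7. In WT iXist-ChrX_Cast it was 426 and 423 RPM on day 2, 504, 628 and 510 on day 3, 541, 634 and 431 on day 5, and 559, 519 and 449 on day 7. No WT iXist-ChrX_Dom value on days 2 and 3 reached the lowest of WT iXist-ChrX_Cast. At the late days Firre was at 102, 264, 214 and 103 RPM in WT iXist-ChrX_Dom and at 308, 97.2 and 137 RPM in WT iXist-ChrX_Cast, each below every WT value of days 2 to 7 in its line. Over days 2 to 7 Firre ran from 182 to 353 RPM in A3, from 394 to 797 RPM in D5 and from 404 to 592 RPM in G6.

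By edgeR, Firre RNA fell from days 5 and 7 to days 15 and later by 0.99 on the log2 scale in WT iXist-ChrX_Dom (SE 0.262, adjusted p = 0.0196), by 1.13 in A3 (SE 0.284, adjusted p = 0.0156), by 1.35 in WT iXist-ChrX_Cast (SE 0.276, adjusted p = 0.00206) and by 2.05 in D5 and G6 (SE 0.284, adjusted p = 2.8e-06). Of all genes tested, 25.9%, 25.2%, 32.3% and 57.5% were called in these comparisons. Over the same span the pluripotency markers were called lower for 2, 5, 6 and 5 of 6 genes and the fibroblast markers higher for 5, 5, 6 and 6 of 6, and the part of either in the fall of Firre was not tested. Between days 2 and 3 and days 5 and 7 no change of Firre passed, with log2 values of 0.32, -0.04, 0.17 and 0.32 in the same order, where 13.8%, 16%, 38.1% and 48.5% of genes were called. From ES cells to days 2 and 3 Firre fell by 1.27 in A3 (SE 0.332, adjusted p = 0.0258), where 12.9% of genes were called. Values without each replicate ran from -1.40 to -1.08 (adjusted p from 0.0116 to 0.168), and the call was lost when either ES replicate was left out (the lone one is then taken to vary like the other samples), and also without replicate 1 of day 2 or without either replicate of day 3. In D5 and G6 the value was -0.35 (adjusted p = 0.427), where 34.3% of genes were called.

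Dxz4 RNA passed the test of a change between periods in fewer genotypes than Firre RNA, and per length of counted sequence its mean was the lower in every period. In uninduced cells it was 19.9 and 25.6 RPM in A3, 18.6 and 17.1 RPM in D5 and 21.4 RPM in G6. In WT iXist-ChrX_Dom it was 18.3 and 18.7 RPM on day 2 and 13.3 and 14.7 RPM on day 7, and in WT iXist-ChrX_Cast 20.3 and 22.2 RPM on day 2 and 14.8, 10.4 and 13.5 RPM on day 7. The KO clones ran from 11.5 to 25.5 RPM over days 2 to 7. At the late days it was at 9.23, 13.6, 11.5 and 11 RPM in WT iXist-ChrX_Dom and at 15.9, 12.8 and 11.2 RPM in WT iXist-ChrX_Cast, and these ranges overlap those of day 7. With TMM factors the only comparison of periods in which Dxz4 passed was that of days 5 and 7 with days 2 and 3 in D5 and G6 (-0.34 on the log2 scale, SE 0.110, adjusted p = 0.0143), and WT iXist-ChrX_Cast had -0.32 (adjusted p = 0.0756). With library totals the latter was -0.44 and passed (adjusted p = 0.0290). Late against days 5 and 7 the log2 values were -0.28, -0.33, 0.08 and -0.21 in WT iXist-ChrX_Dom, A3, WT iXist-ChrX_Cast and the pair of D5 and G6. With library totals in place of TMM factors the value was -0.48 and passed in WT iXist-ChrX_Dom (adjusted p = 0.0283) and in D5 and G6 (adjusted p = 0.00696), and it was -0.12 in WT iXist-ChrX_Cast. Per length of counted sequence, Dxz4 was at 0.281 ± 0.067 RPM per kb and Firre at 1.77 ± 1.02 RPM per kb over all 17 libraries of day 15 and later.

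**Figure D4:**
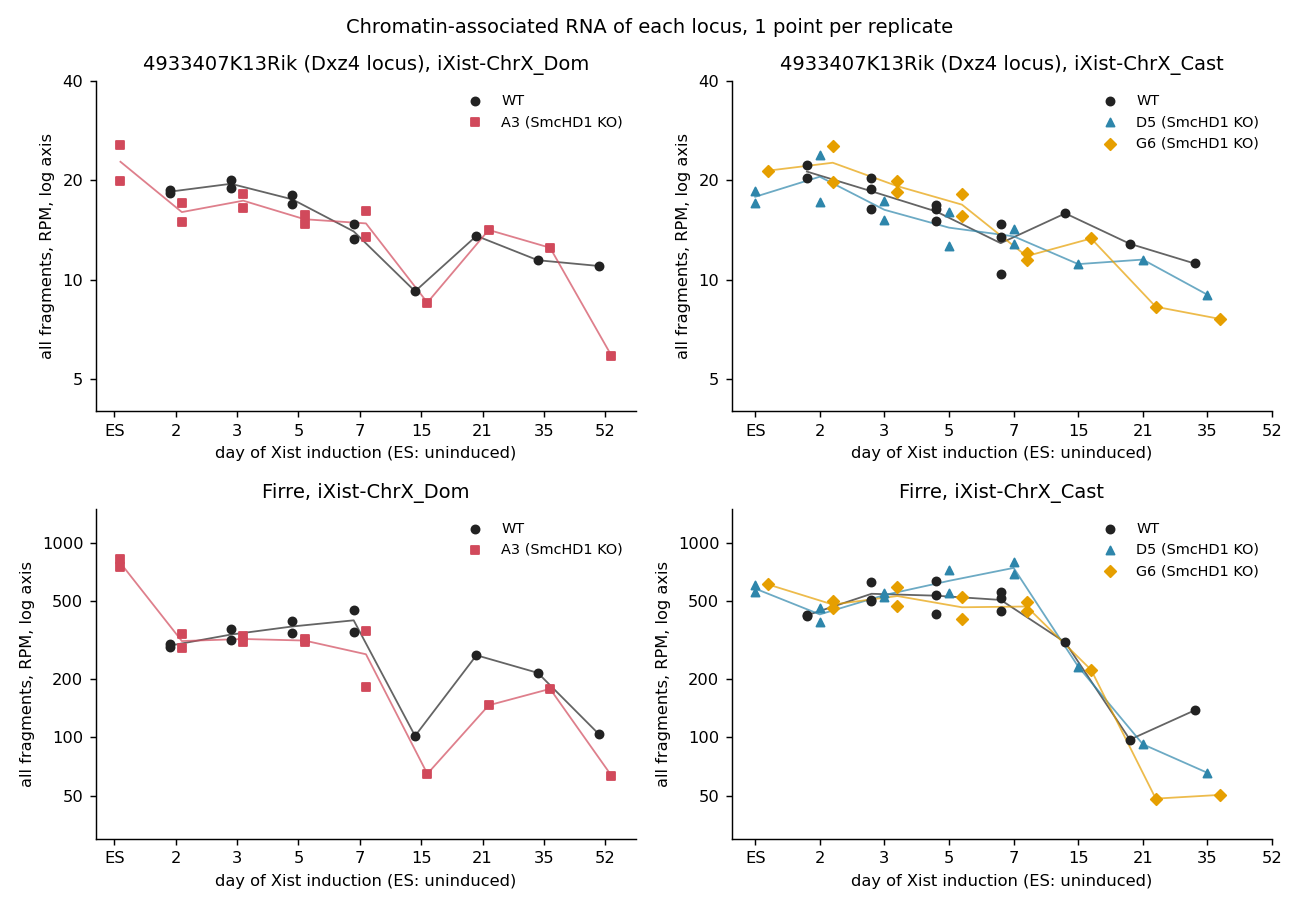
Total RNA of 4933407K13Rik at Dxz4 and of Firre (RPM, log axis) by day of Xist induction, with 1 point per replicate for WT and the SmcHD1 KO clones and lines through the means of the days. Firre drops from day 15 on in every clone, to between 48.3 and 308 RPM.

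Between the lines in WT, total Firre RNA over days 2 to 7 was higher in iXist-ChrX_Cast, where the Dom allele is the active one, by 0.62 on the log2 scale (SE 0.0838, edgeR, adjusted p = 4.41e-05). Dxz4 RNA differed by 0.06, and 26.3% of all genes were called. On days 15 to 35 the log2 values were -0.06 for Firre and 0.36 for Dxz4, where 0% of genes were called by edgeR (613 at an unadjusted p below 0.05) and 90 genes by DESeq2.

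The question of the KO comparison is whether loss of SmcHD1 changes silencing or output at these loci. No test over all genes called a KO effect on the Xi share of either member. In iXist-ChrX_Dom the KO minus WT difference of Firre was -0.0104 on days 2 and 3 (95% interval -0.0466 to 0.0257), -0.0014 on days 5 and 7 (-0.0268 to 0.0239) and 0.0175 from day 15 on (-0.0309 to 0.0658, adjusted p = 0.561). That of Dxz4 was -0.0094 (-0.0754 to 0.0567), -0.0040 (-0.0260 to 0.0180) and -0.0034 (-0.0536 to 0.0469). Of all genes 0%, 7.32% and 3.36% were called in these periods, with 15 genes of 246 at an unadjusted p below 0.05 in the first and 0 genes by the quasi-binomial test. The 18 genes called on days 5 and 7 became 0 to 14 without 1 replicate, and the 8 called from day 15 on became 0 whichever of the 8 libraries was left out.

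In iXist-ChrX_Cast the intervals were narrower. The difference of Firre was -0.0017 on days 2 and 3 (-0.0121 to 0.00877), 0.0023 on days 5 and 7 (-0.00225 to 0.00689) and 0.0033 from day 15 on (-0.00546 to 0.0120, adjusted p = 0.599). That of Dxz4 was -0.0153 (-0.0482 to 0.0176), 0.0021 (-0.0193 to 0.0236) and 0.0118 (-0.0187 to 0.0423, adjusted p = 0.587). Of all genes 0%, 0.501% and 7.16% were called, with 32 of 399 at an unadjusted p below 0.05 on days 2 and 3 and 0 by the quasi-binomial test. The 28 genes called from day 15 on became 4 to 29 without 1 library, with 4 when WT of day 15 was left out. The test of whether the late KO effect differed between the lines did not pass for Firre (-0.0142, adjusted p = 0.869), where 0.441% of genes were called. For neither member did the KO effect pass as a change from days 2 and 3 to the late days within a line, where 7.56% of genes were called in iXist-ChrX_Dom and 12.3% in iXist-ChrX_Cast.

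Escape genes, which are known to be transcribed from the inactive X, were set beside the loci with a list of 7. From day 15 on the KO effect on the Xi share was called for 2 of 7 in iXist-ChrX_Cast, the histone demethylase gene Kdm6a (0.0451 in WT and 0.137 in KO) and the ribosome biogenesis gene Utp14a (0.107 and 0.195), where 7.16% of all genes were called, with a list median of 0.0494 against 0.0064 over all genes. In iXist-ChrX_Dom 0 of the 4 that were measured passed in limma, where 3.36% of all genes were called, with a median of 0.105 against 0.0137. Their late WT shares in iXist-ChrX_Dom were 0.0497 for Kdm6a, 0.0778 for the RNA helicase gene Ddx3x, 0.0870 for Utp14a and 0.215 for the translation factor gene Eif2s3x, beside 0.0941 for Firre and 0.0441 for Dxz4. In WT iXist-ChrX_Cast the late shares of Firre and Dxz4 were 0.00533 and 0.0262, below those of Kdm6a and Utp14a there.

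Total RNA was compared in the same way. Over days 2 to 7 the log2 KO over WT value of Firre was -0.16 in iXist-ChrX_Dom (SE 0.113, adjusted p = 0.549) and 0.08 in iXist-ChrX_Cast, and that of Dxz4 -0.08 and -0.04. Of all genes, 0.803% and 0.381% were called. A3 had a lower sum of pluripotency markers than WT on days 2 and 3, 225 to 563 against 479 to 781 RPM.

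At the late days, total Firre RNA was lower in the KO library than in the WT library of the same line and day in every pair. On days 15, 21, 35 and 52 it was 64.8, 146, 177 and 63.4 RPM in A3 against 102, 264, 214 and 103 RPM in WT. On days 15, 21 and 35 it was 231, 92.0 and 65.6 RPM in D5 and 222, 48.3 and 50.5 RPM in G6 against 308, 97.2 and 137 RPM in WT. The edgeR log2 values were -0.49 in iXist-ChrX_Dom (SE 0.124, adjusted p = 0.462) and -0.67 in iXist-ChrX_Cast (SE 0.190, adjusted p = 0.308), and neither passed. Within these comparisons edgeR called 0% of genes in both lines, with 1622 and 1898 genes at an unadjusted p below 0.05, and DESeq2 called 184 and 435 genes. In 1 fit over all induced libraries of the line, which called 1256 and 1475 genes, Firre passed in iXist-ChrX_Cast (-0.66, adjusted p = 0.015). That fit treats each day of a genotype as a group, and late WT has 1 library per day. Its spread in iXist-ChrX_Cast thus comes from replicates of the earlier days and from D5 against G6. The p-value does not measure the spread between late WT samples, which ran from 97.2 to 308 RPM there.

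**Figure D5:**
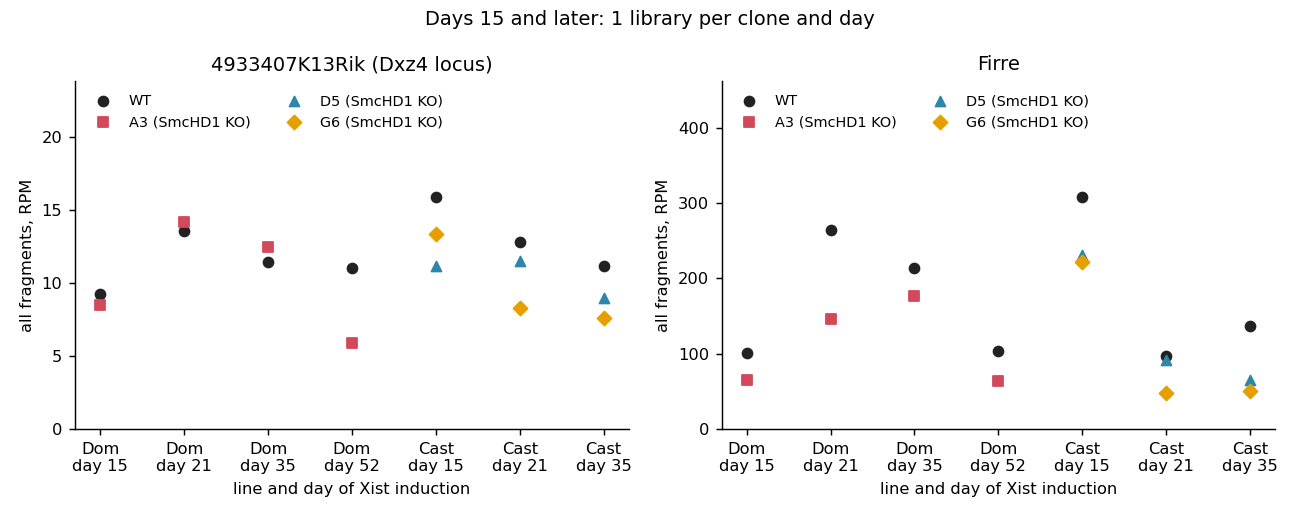
Total RNA of 4933407K13Rik at Dxz4 and of Firre (RPM, linear axis from 0) in each library of day 15 and later, with WT and KO of the same line and day above one label. For Firre every KO point lies below the WT point of its day, and for 4933407K13Rik WT and KO overlap in iXist-ChrX_Dom.

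A permutation of genotype within line and day was run on the same late values. It takes the days of a clone as independent, although they come from 1 WT and 1 KO clone in iXist-ChrX_Dom and 1 WT and 2 KO clones in iXist-ChrX_Cast, each with 1 library per day. Firre RNA differed by -0.62 on the log2 scale in A3 (lower on 4 of 4 days, exact two-sided permutation p = 0.12, the smallest this design allows) and differed by -0.75 in D5 and G6 (lower on 3 of 3 days, exact p = 0.037, also the smallest). Adjusted over the 48 tests of this family both values were 0.5. With so few arrangements neither test could have passed after this adjustment, whatever the size of the difference, so these tests decide nothing. Fragments of the active X gave -0.63 in A3 and -0.75 in D5 and G6, and those of the inactive X -0.35 and -0.37. Over both lines together the mean difference was -0.68 on the log2 scale, and without each line and day in turn it ran from -0.74 to -0.58. This mean was taken after the values of each line were seen and is given with no test. The Xi share of Firre was higher by 0.0175 in A3, on 4 of 4 days (exact p = 0.12, adjusted p = 0.5), and by 0.0033 in the mean of D5 and G6 (exact p = 0.444, adjusted p = 0.807), which came from D5, since the difference with G6 alone was -0.0012.

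Late Dxz4 RNA was 8.53, 14.2, 12.5 and 5.89 RPM in A3 against 9.23, 13.6, 11.5 and 11 RPM in WT, and 11.2, 11.5 and 9.01 RPM in D5 and 13.3, 8.28 and 7.60 RPM in G6 against 15.9, 12.8 and 11.2 RPM in WT. A3 lay on either side of WT, and D5 and G6 lay below WT on each day. By edgeR the log2 values were -0.07 (adjusted p = 0.874) and -0.33 (SE 0.139, adjusted p = 0.389). In the permutation within line and day the difference was -0.21 in A3 (exact p = 0.75) and -0.40 in D5 and G6 (exact p = 0.0741, adjusted p = 0.5). That of active X fragments was -0.31 in A3, lower on 4 of 4 days (exact p = 0.12, adjusted p = 0.5), and -0.45 in D5 and G6, lower on 3 of 3 days (exact p = 0.037, adjusted p = 0.5). The sizes depended on the scaling. With TMM factors the totals differed by -0.07 and -0.32, and the active X fragments by -0.17 in A3, lower on 3 of 4 days, and by -0.37 in D5 and G6.

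Cell type markers were read in the same late libraries. The median log2 KO over WT value of the 6 pluripotency markers was -1.28 in iXist-ChrX_Dom and -0.49 in iXist-ChrX_Cast, and that of the 6 fibroblast markers 0.29 and 1.49. None of these genes was called, where 0% of all genes were called in either line. That of the neural precursor markers was -0.10 and -0.81, and that of the 4 neuronal markers (Tubb3, Dcx, Map2 and Rbfox3) -0.39 and 0.37. Of the 4 glial markers (Gfap, Aqp4, S100b and Mbp), the 3 and 2 that were tested had medians of 1.09 and -0.03. The summed pluripotency level was 11 to 145 RPM in WT and 5.38 to 37.1 RPM in A3, and 4.28 to 32.8 RPM in WT and 1.30 to 42.4 RPM in D5 and G6. The summed fibroblast level was 385 to 8116 RPM in WT and 768 to 10166 RPM in A3, and 242 to 9314 RPM in WT and 1207 to 16140 RPM in D5 and G6. The part of these markers in the late difference of Firre was not tested.

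The KO clones D5 and G6 were compared with each other over days 2 to 7. Their Firre share differed by -0.0035 (G6 minus D5, adjusted p = 0.507) and their Dxz4 share by -0.0093, where 1.5% of genes were called. Total Firre RNA differed by -0.15 on the log2 scale, and Dxz4 RNA was at 0.20 (adjusted p = 0.106), where 19.9% of genes were called. With the replicate number as a block the value of Dxz4 was 0.21 and passed (adjusted p = 0.0382). In the same comparison all 6 pluripotency markers were called lower in G6 (median -0.87). At the late days the Firre share of G6 was below that of D5 on all 3 days, with a difference of -0.0090 (adjusted p = 0.622 in limma), and Dxz4 differed by 0.0146. No gene passed there (0% of genes for the share and 0% for total RNA, with 28 and 1583 genes at an unadjusted p below 0.05, and 0 genes with the runs kept separate).

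The measured genes near Dxz4 had lower late Xi shares in WT than Dxz4 itself, while the measured neighbour of Firre lay below Firre in iXist-ChrX_Dom and above it in iXist-ChrX_Cast. These are means set side by side, with no test between genes. Of the 8 genes that start within 500 kb of Dxz4, 6 were measured in the allelic tables: the coagulation factor gene F8, Fundc2, Mtcp1, the deubiquitinase subunit gene Brcc3, the prefoldin subunit gene Vbp1 and the actin-bundling gene Pls3. From day 15 on in WT, the mean Xi share of F8 was 0.00564 in iXist-ChrX_Dom and 0.00216 in iXist-ChrX_Cast, that of Pls3 0.0092 and 0.0133, and that of Vbp1 0.0069 and 0.0129, with the other 3 between 0 and 0.0042, beside 0.0441 and 0.0262 for Dxz4. The KO effect on the share was not called for any of them. Vbp1 had the greatest difference, with 0.102 in A3 (KO minus WT 0.0954, adjusted p = 0.164 in limma) and 0.0649 in D5 and G6 (0.0520, adjusted p = 0.0858). Of the 4 genes within 500 kb of Firre, 2610018G03Rik was measured, and its mean share was 0.0640 in WT and 0.0481 in KO in iXist-ChrX_Dom, and 0.0430 and 0.0609 in iXist-ChrX_Cast.

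Proteins known to act at these loci or to shape chromosome loops were read from their own transcripts. None of the 14 or 15 genes tested of a list of 15 (CTCF, its paralog Ctcfl, cohesin subunits, loaders and release factors, Hnrnpu and Yy1) was called between KO and WT in either line or period, where 0.803% and 0.381% of all genes were called over days 2 to 7 and 0% in both lines from day 15 on. At the late days the KO over WT log2 values in iXist-ChrX_Dom and iXist-ChrX_Cast were -0.19 and 0.01 for Ctcf, -0.24 and 0.17 for the cohesin subunit gene Rad21, -0.27 and -0.14 for Hnrnpu, and -0.03 and -0.23 for the transcription factor gene Yy1. From days 5 and 7 to the late days, 1 of the list rose in WT iXist-ChrX_Dom (Pds5b), 1 rose and 1 fell in A3 (Hdac8 and Hnrnpu, in that order), 2 fell in WT iXist-ChrX_Cast (Wapal and Pds5a), and 3 rose and 4 fell in D5 and G6. The shares of all genes called there were 25.9%, 25.2%, 32.3% and 57.5% in the same order. Of the X-linked noncoding RNAs Xist, Tsix, Jpx and Ftx, 0 of 4 were called between KO and WT. Smchd1 itself, whose intron-containing transcript does not check a coding deletion, had log2 values between -0.42 and 0.003 and was not called.

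Over all 65 replicates, the 5 genes of 13709 whose RNA levels were most like those of Firre were Nrsn1, Stk17b, Ccdc18, Pim3 and Cul4b, with Spearman correlations of 0.893 to 0.898. For Dxz4 they were Rbm19, Pole, Lyar, Kcnk5 and Rrp1b, with 0.893 to 0.920. Firre and Dxz4 themselves had 0.520, which placed Dxz4 at rank 2297 for Firre. The replicates share lines and days, so these values are a description. By Xi share, the closest gene to Firre in iXist-ChrX_Dom was Mospd1, with a mean absolute difference of 0.0431 over 26 replicates, and in iXist-ChrX_Cast Zc3h12b, with 0.00984 over 39. The closest to Dxz4 were Mospd1 (0.0310) and the cohesin subunit gene Stag2 (0.0201).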

How the data were processed

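ChrRNA-seq libraries (TruSeq stranded total RNA) had been cleared of rRNA with Bowtie2 (2.3.2), aligned by the authors to N-masked mm10 with STAR (2.4.2a), keeping unique alignments, split by parental genome with SNPsplit and counted over whole transcripts, by strand, with featureCounts, which gave the deposited counts of all, Cast and Dom fragments per gene. Unique alignment drops reads shared by repeat copies. The authors' deposited allelic ratio tables hold fractions, Xi/(Xi+Xa). The iXist-ChrX_Cast table was recomputed from the counts (18337 values, largest difference 4.996e-16). In the iXist-ChrX_Dom table, 26 columns carried names of the other line and were not used, and ratios were recomputed from counts for its gene list. Its filters were the authors' (allelic coverage and ES ratio).

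Runs R1 and R2 of a replicate were summed (counts) or averaged (ratios), although their values could differ. For Firre in G6 on day 3 the Xi share was 0.0111 in R1 and 0.0373 in R2, and R2 was the higher in 6 of 7 pairs. If R1 and R2 were separate experiments, each combined value counts them as 1 replicate. Xi share was fitted with limma (3.58.1) and totals with edgeR (4.0.16, quasi-likelihood, TMM, filterByExpr) across all genes, with day or period as a factor and Benjamini-Hochberg adjusted p of 0.05 as threshold. Late libraries of a period served as its replicates. Single values were tested by exact two-sided permutation within line and day. DESeq2 (1.42.0), a quasi-binomial model, log2 odds (offset 0.5), a minimum of 20 allelic fragments, other scalings, clones alone, replicate blocks and leaving out replicates were alternatives. The scripts were tested on simulated data. Named genes were the members, genes starting within 500 kb of them, the 5 genes most like each by level and by share, and fixed lists of which members that passed, Ctcf, Rad21, Hnrnpu, Yy1 and measured escape genes were named. Members and lists were chosen with earlier results of these data known. Replicate numbers paired D5 with G6 (correlation of deviations 0.353 to 0.769 on each of 4 days), hence the block beside their comparison. Between WT and KO the correlation ran for iXist-ChrX_Dom from -0.696 to -0.409 over 4 days and for iXist-ChrX_Cast from -0.264 to 0.752, so equal numbers were not taken as pairs there. Analyses used R 4.3.3 and Python 3.11.15.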

Additional observations from a re-analysis of the deposited data

How the results depend on the processing

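Of 290 values recomputed under alternatives other than leaving out a replicate, over 124 values and gene counts, 265 kept their direction and their side of the threshold, 13 newly passed, 1 no longer passed and 11 changed sign. Without 1 replicate, 1063 of 1104 were kept, 12 no longer passed, 1 newly passed and 28 changed sign. The cause was not tested for any of them. Depth limits the late shares, which rest on 2 to 11 Xi fragments per library at Dxz4 and on as few as 1 at Firre in iXist-ChrX_Cast.

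With G6 alone as the KO, the Xi share difference of Firre was -0.000557 on days 5 and 7 and -0.0012 from day 15 on, that of Dxz4 was -0.0040 on days 5 and 7, and the log2 totals over days 2 to 7 were -0.0065 for Firre and 0.0625 for Dxz4. In 1 fit over all induced libraries the late total of Firre in iXist-ChrX_Cast was -0.66 and passed, with a spread that leaves out that between late WT samples. The quasi-binomial test called Firre between days 5 and 7 and days 2 and 3 in WT iXist-ChrX_Dom (-0.58 in log2 odds) and A3 (-0.48), and between the lines on days 15 to 35 (-4.18). The log2 odds scale called Firre late against days 5 and 7 in D5 and G6 (-0.88, adjusted p = 0.0427) and between the lines on days 15 to 35 (-4.22), and lost Dxz4 between the lines on days 2 to 7 (-0.61). With library totals without TMM the log2 total of Dxz4 was -0.48 late in WT iXist-ChrX_Dom and -0.48 in D5 and G6 and -0.44 on days 5 and 7 in WT iXist-ChrX_Cast (adjusted p = 0.0290), all passing, and -0.12 late in WT iXist-ChrX_Cast, 0.0337 from ES cells in D5 and G6 and -0.0385 between the lines on days 2 to 7. In the permutation of Dxz4 with TMM factors, iXist-ChrX_Dom on days 5 and 7 gave 0.0266 in all and 0.0384 in Xa fragments, and iXist-ChrX_Cast from day 15 on gave -0.32 in all (exact p = 0.037) and 0.0771 in Xi fragments. With the runs kept separate the last total was -0.42 (exact p = 0.0278). The late mean of both lines together with TMM factors was -0.56 for Firre, and for Dxz4 -0.18 in all and -0.25 in Xa fragments (lower on 6 of 7 days), against -0.29 and -0.37 (7 of 7 days) with library totals.

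The replicate number as a block raised the Dxz4 total of G6 over D5 to 0.21, and separate runs to 0.23, and both passed. The block raised the count of genes from 3074 to 6709 for totals and from 6 to 64 for the Xi share between these clones. WT and KO samples of equal number went opposite ways in iXist-ChrX_Dom (correlation -0.696 to -0.409) and did not all go together in iXist-ChrX_Cast (-0.264 to 0.752). A replicate block there changed no call of the members (Firre total -0.17 in iXist-ChrX_Dom) and moved gene counts from 124 to 6 for totals and from 18 to 0 for the share on days 5 and 7 in iXist-ChrX_Dom, and from 59 to 143 and from 2 to 0 in iXist-ChrX_Cast. Crossing the numbers in iXist-ChrX_Dom gave 1311 and 6 genes.

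Gene counts moved by more than 1.5 times under other settings as follows. Late counts of the Xi share between KO and WT were 8 in iXist-ChrX_Dom and 28 in iXist-ChrX_Cast in limma and 68 and 113 on the log2 odds scale, and D5 alone gave 0 late and 28, against 2, on days 5 and 7. For KO over WT totals of days 2 to 7 in iXist-ChrX_Cast, 59 genes became 1285 with D5 alone and 11 in 1 fit over all induced libraries. Totals of days 5 and 7 in WT iXist-ChrX_Dom went from 2116 to 3400 genes with DESeq2. Late against days 5 and 7, the log2 odds scale called the Xi share of 108 genes in WT iXist-ChrX_Dom, 11 in A3, 217 in WT iXist-ChrX_Cast and 215 in D5 and G6, against 0, 0, 1 and 18 in limma.

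Without each replicate in turn, values that changed a call or sign ran over these ranges. For totals (log2) of Dxz4 they were -0.15 to 0.10 for late KO over WT in iXist-ChrX_Dom, -0.10 to 0.0239 for days 5 and 7 in A3, -0.13 to 0.14 for late G6 over D5, and -0.0313 to 0.19 for late WT iXist-ChrX_Cast. For totals of Firre they were -1.40 to -1.08 from ES cells in A3, -0.12 to 0.13 for days 5 and 7 in A3, and -0.83 to 0.52 between the lines on days 15 to 35. For the Xi share of Dxz4 they were -0.0056 to 0.0074 for KO minus WT in iXist-ChrX_Cast on days 5 and 7, -0.0096 to 0.0061 late and -0.0319 to 0.0144 on days 2 and 3 in iXist-ChrX_Dom, -0.0033 to 0.0296 for late G6 minus D5, and -0.0389 to -0.0273 between the lines on days 2 to 7. For that of Firre they were -0.0031 to 0.00041 for KO minus WT in iXist-ChrX_Cast on days 2 and 3, -0.0054 to 0.00255 in iXist-ChrX_Dom on days 5 and 7, -0.0044 to 0.00032 late and -0.0502 to -0.0350 on days 5 and 7 in WT iXist-ChrX_Dom, and -0.0146 to -0.0110 on days 5 and 7 in D5 and G6.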
